A study of Mus musculus with 30 samples.

Results

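The CXC chemokines described here are the 6 genes Cxcl1, Cxcl2, Cxcl3, Cxcl9, Cxcl10 and Cxcl16. They were chosen by name, with earlier results of these data known, and found through the Ensembl identifiers of a table of read counts. The table holds 43629 genes, of which 15 are CXC chemokine genes by symbol. RNA was sequenced from bone marrow-derived dendritic cells (BMDCs) grown for 6 days, in 5 cultures labelled WT and 5 cultures labelled Cacnb3-/-, where Cacnb3 encodes the β3 subunit of voltage-gated calcium channels. Each numbered culture gave 3 libraries, and the 30 libraries were named for the sets ctrl, 0p5h and 24h after a pulse of 500 µM ATP for 30 min. The question these libraries bear on is how ATP, which acts on DCs as a danger signal from damaged cells, changes transcripts with and without this channel subunit.

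The library names and the treatment field of the labels do not match for the sets ctrl and 0p5h. By the library name, ctrl was the control and 0p5h was the set taken at 0.5 h. The protocol in the labels places the early harvest at the end of the ATP pulse, whereas the methods of the study place it 30 min after the pulse. By the treatment field, ctrl had received ATP for 30 min and 0p5h had received vehicle. For the 24h set the name and the field match. Sets are called here by the library name, and every direction between ctrl and 0p5h turns under the other reading, under which 24h against 0p5h would be the comparison with vehicle. By the methods of the study, BMDCs were grown with GM-CSF from bone marrow of mice 6 to 12 weeks old, the WT mice were C57BL/6J and the Cacnb3-/- mice were on C57BL/6N. The substrain and the genotype therefore cannot be told apart, and the knockout was present in all cells of the mouse.

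Reads of Cacnb3 were counted in all 30 libraries, from 4307 to 45632. The Cacnb3 level was 1030 to 2140 counts per 1000000 (CPM) in the libraries labelled WT and 573 to 1330 CPM in those labelled Cacnb3-/-. The ranges of the genotypes overlapped in ctrl and in 0p5h and did not overlap in 24h. The difference was -0.77 (log2, SE 0.23) in 24h, with an edgeR adjusted p of 0.0518, and it was smaller in ctrl (-0.27) and in 0p5h (-0.34). The table counts whole genes, so it does not show which exons these reads came from, and the genotype is used below as the label gives it. Markers of DCs (Itgax, Flt3, Zbtb46, H2-Ab1, Cd74, Ccr7, Fscn1 and Ccl22) summed to 17500 to 42500 CPM. Cd74 (6000 to 19000 CPM) and Ccl22 (2820 to 14000 CPM) weighed most in this sum, whereas Itgax, Flt3 and Zbtb46 reached at most 459, 136 and 225 CPM. The summed markers were 153 to 761 CPM for neutrophils and their precursors, 833 to 3420 CPM for macrophages and at most 1.19 CPM for T cells. In RNA of a whole culture, a change in the share of cells that express a gene and a change in RNA per cell cannot be told apart. Total counts ran from 8237393 to 32164225 per library, with a median of 19556920.

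Chemokines are small secreted proteins that direct leukocyte movement along their gradients, and the CXC family is named for a residue between its first pair of cysteines. Cxcl1, Cxcl2 and Cxcl3 are ligands of Cxcr2 and attract neutrophils. Their genes lie near each other in the genome, and in myeloid cells they are early targets of NF-kB with short-lived mRNAs. Cxcl9 and Cxcl10 are ligands of Cxcr3 on activated T cells and NK cells and are classical interferon targets. Cxcl16 is unusual in being made as a membrane-bound protein that Adam10 and Adam17 can release, and it binds Cxcr6.

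In the GRCm38 annotation the counts were made with, 5 of the 6 genes lie on chromosome 5. Cxcl3 (ENSMUSG00000029379) spans chr5:90786103-90788086, Cxcl1 (ENSMUSG00000029380) chr5:90891241-90893115 and Cxcl2 (ENSMUSG00000058427) chr5:90903899-90905909, all on the plus strand. Cxcl9 (ENSMUSG00000029417) spans chr5:92321331-92328079 and Cxcl10 (ENSMUSG00000034855) chr5:92346638-92348889, both on the minus strand. Cxcl16 (ENSMUSG00000018920) is on chromosome 11, chr11:70453983-70459984, minus strand. It shares 552 exonic bases with Zmynd15 on the other strand, which had 594 to 6890 reads, and the counting set no strand option, so reads in those bases cannot be assigned to either gene. Cxcl2 and Cxcl3 are 89.7% identical over their coding sequences and share 61 words of 50 bases, 5.74% of those in Cxcl2 and 6.31% of those in Cxcl3. A small part of their reads may therefore not be told apart by sequence. Cxcl1 was 75.7% identical to Cxcl2 and 72.7% to Cxcl3, and no other pair of members shared a word of 50 bases.

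The 250 bases before the RefSeq start are shown for the 5 genes with an entry, because the changes of set described below concern Cxcl2 and Cxcl10 most and these bases hold what the neighbours have in common. All are from GRCm38.p6, written 5′ to 3′ on the strand of the gene. They lie at chr5:90890995-90891244 (plus) for Cxcl1, chr5:90903649-90903898 (plus) for Cxcl2, chr5:90785851-90786100 (plus) for Cxcl3, chr5:92328080-92328329 (minus) for Cxcl9 and chr5:92348890-92349139 (minus) for Cxcl10. Capitals mark matches to the NF-kB consensus and, in Cxcl10 only, the ISRE-like match that lies farthest upstream.
Cxcl1: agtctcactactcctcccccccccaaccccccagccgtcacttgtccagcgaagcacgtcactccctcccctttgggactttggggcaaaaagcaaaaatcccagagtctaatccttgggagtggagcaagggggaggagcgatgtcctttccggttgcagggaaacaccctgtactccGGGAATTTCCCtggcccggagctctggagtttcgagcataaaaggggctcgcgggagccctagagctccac
Cxcl2: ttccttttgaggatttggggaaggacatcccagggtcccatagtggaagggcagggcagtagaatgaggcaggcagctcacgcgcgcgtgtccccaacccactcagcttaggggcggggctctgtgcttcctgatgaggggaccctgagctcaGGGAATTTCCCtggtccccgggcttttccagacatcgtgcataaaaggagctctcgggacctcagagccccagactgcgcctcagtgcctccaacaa
Cxcl3: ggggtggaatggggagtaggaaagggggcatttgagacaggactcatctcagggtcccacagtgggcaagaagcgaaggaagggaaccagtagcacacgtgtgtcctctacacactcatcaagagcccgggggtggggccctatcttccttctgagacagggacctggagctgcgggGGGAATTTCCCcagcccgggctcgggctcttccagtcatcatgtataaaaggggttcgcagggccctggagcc
Cxcl9: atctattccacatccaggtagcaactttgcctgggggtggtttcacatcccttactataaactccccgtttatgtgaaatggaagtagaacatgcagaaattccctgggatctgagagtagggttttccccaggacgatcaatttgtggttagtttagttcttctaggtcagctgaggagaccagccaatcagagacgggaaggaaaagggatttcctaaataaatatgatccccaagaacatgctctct
Cxcl10: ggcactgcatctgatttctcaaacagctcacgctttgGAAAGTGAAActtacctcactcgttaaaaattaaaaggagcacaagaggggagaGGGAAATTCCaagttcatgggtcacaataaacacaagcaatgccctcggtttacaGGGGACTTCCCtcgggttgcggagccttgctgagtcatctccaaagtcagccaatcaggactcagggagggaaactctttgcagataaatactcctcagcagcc

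The longest word that the windows of Cxcl1, Cxcl2 and Cxcl3 shared was GGGAATTTCCC, of 11 letters, at 71 to 61, 97 to 87 and 73 to 63 bases before the start, respectively. It holds a match to the NF-kB consensus on each strand, shifted by 1 base. Searched on both strands, the word occurred in 14 of 27025 genes with such a window (0.052%), whereas the broader NF-kB consensus occurred in 2225 (8.233%). The longest shared word outside it was ATAAAAGG, of 8 letters, on the gene strand at 34 to 27, 57 to 50 and 29 to 22 bases before the start, which 324 genes held (1.199%). Over the whole windows, shared words included, identity was 54.0% between Cxcl2 and Cxcl3, 47.2% between Cxcl1 and Cxcl3 and 46.0% between Cxcl1 and Cxcl2. It was 46.1% between Cxcl9 and Cxcl10. Between Cxcl1, Cxcl2 or Cxcl3 and either of these it was 38.9% to 43.8%. Cxcl10 matched the NF-kB consensus at 159 to 150 and at 104 to 95 bases before the start, the latter overlapping a match shifted by 1 base. It also held GAAAGTGAAA, a match to the core of interferon-stimulated response elements (ISRE-like, a repeat of GAAA spaced by 2 bases), at 213 to 204 (3.463% of genes), and TGANTCA, the letters of AP-1, at 74 to 68 (7.819%). Cxcl3 also held TATAAA at 30 to 25, overlapping the 8-letter word. Cxcl9 held only TATAAA, far upstream at 195 to 190 (8.936% of genes), and neither an NF-kB consensus nor an ISRE-like match in this window. TGACGTCA, the letters of CREB sites (1.769% of genes), was in none of the 5 windows. The shared words were picked from these windows, and all are matches of letters that do not show that a factor was bound.

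**Figure D1:**
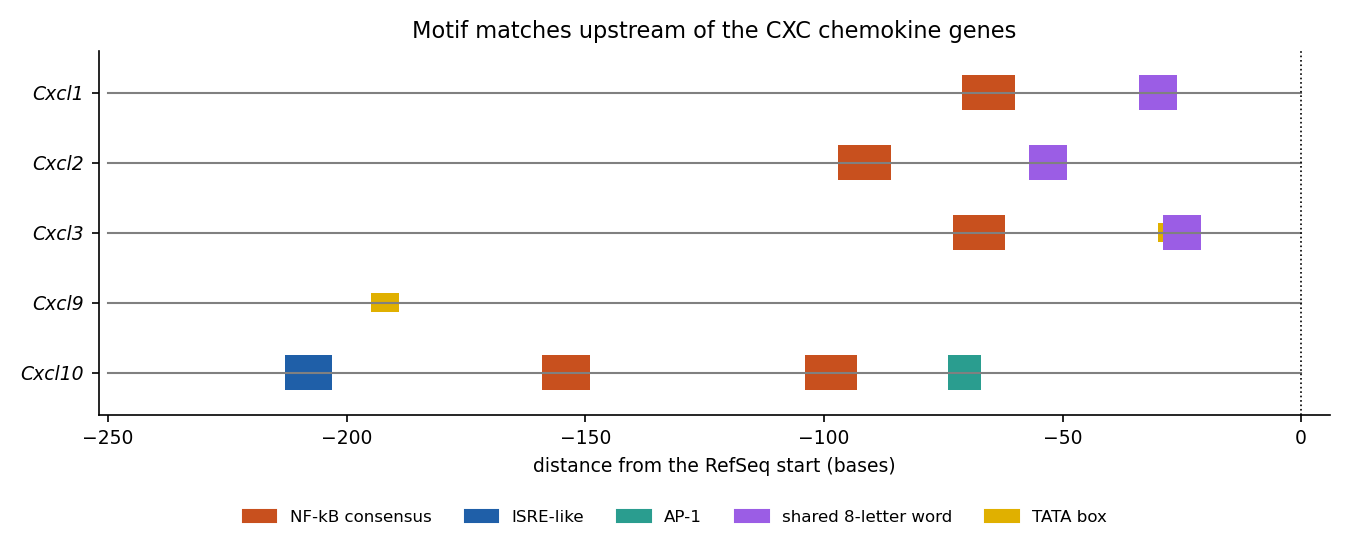
Motif matches in the 250 bases before the RefSeq start of 5 CXC chemokine genes, with the distance from the start in bases on the x axis and 1 line per gene. Cxcl1, Cxcl2 and Cxcl3 have an NF-kB match followed by the shared 8-letter word nearer to the start, Cxcl3 also has a TATAAA match at 30 to 25 that overlaps this word, Cxcl10 has an ISRE-like, 2 NF-kB and an AP-1 position, and Cxcl9 has only a TATAAA match at 195 to 190.

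The mRNAs also differ in the pentamer ATTTA, the core of AU-rich elements that mark short-lived mRNAs, in the part that follows the stop codon. Cxcl2 had 8 copies (10.9 per kb), Cxcl1 had 5 (8.45 per kb) and Cxcl3 had 5 (7.75 per kb). At most 1.3% of 17561 genes were as dense in ATTTA as any of these 3. Cxcl10 had 2 copies (2.74 per kb), Cxcl9 had 3 (1.22 per kb) and Cxcl16 had 2 (1.17 per kb), densities that 24.6% to 57.5% of genes reached.

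Per kilobase of exon (RPKM, computed here from the counts and comparable between genes), Cxcl16 was by far the highest member, at 479 ± 85.5 (mean ± SD, n = 30 libraries). Only 94 of 13755 expressed genes had a higher mean. Cxcl2 followed at 33.7 ± 20.8, Cxcl3 at 25.8 ± 16.8, Cxcl1 at 13.1 ± 6.62, Cxcl10 at 4.81 ± 2.94 and Cxcl9 at 0.161 ± 0.123. Within a library, Cxcl16 was above every other member in 30 of 30 libraries and Cxcl1 was above Cxcl10 in 30 of 30. Cxcl2 was above Cxcl3 in only 19 of 30 libraries, and these neighbours in the order differed by less than their spread. The members also differed in how steady they were. The highest library exceeded the lowest by 1.94-fold in CPM for Cxcl16, 6.63-fold for Cxcl1, 11.3-fold for Cxcl10, 15.3-fold for Cxcl2 and 18.8-fold for Cxcl3.

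**Figure D2:**
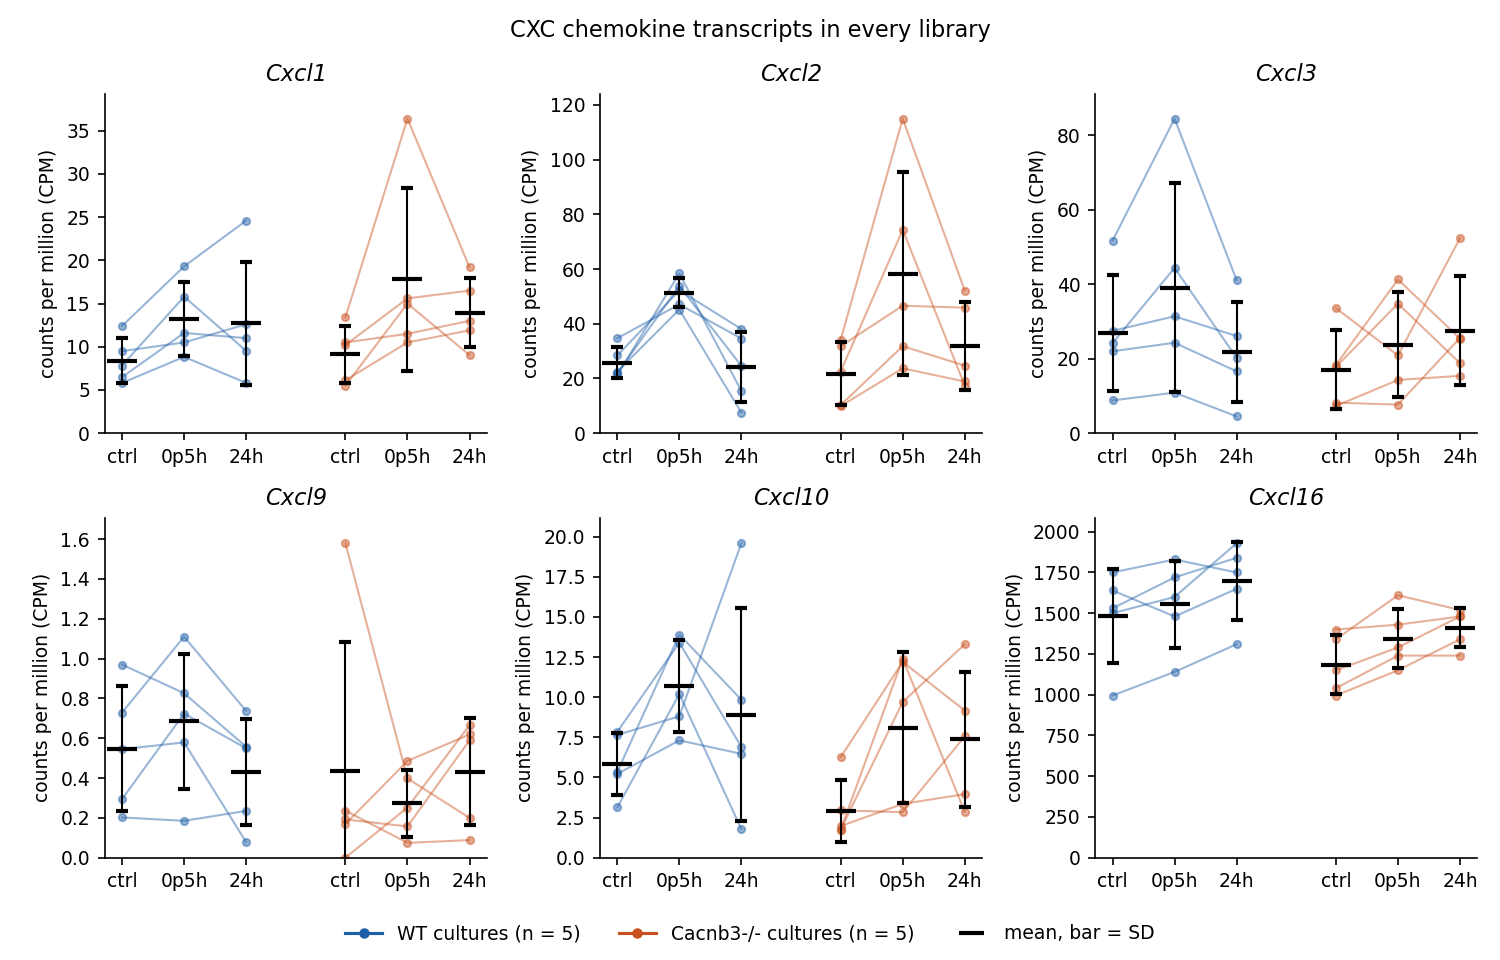
CPM of each CXC chemokine (linear y axis from 0) in the sets ctrl, 0p5h and 24h, with 1 line per culture number, blue for WT and orange for Cacnb3-/- (n = 5 each), and black bars for mean and SD (cut at 0 for Cxcl9). Cxcl2 is higher in 0p5h than in ctrl and in 24h in all 10 cultures, and Cxcl16 stays between 995 and 1930 CPM.

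Cxcl2 gave the clearest change between sets: it was higher in 0p5h than in ctrl in 10 of 10 cultures and lower again in 24h than in 0p5h in 10 of 10. In the 5 WT cultures, in the order p974s846, p974s850, p974s855, p974s856 and p974s864, Cxcl2 was at 34.7, 21.9, 28.4, 21.3 and 22.5 CPM in ctrl and at 47.1, 53.8, 52.2, 58.4 and 45.2 CPM in 0p5h. All 5 libraries of WT 0p5h were above all 5 of WT ctrl, so the groups did not overlap. In 24h the same cultures were at 34.6, 24.6, 38.1, 15.4 and 7.51 CPM, all below the lowest of 0p5h and spread on both sides of ctrl. The means were 25.8 ± 5.76, 51.3 ± 5.31 and 24.0 ± 12.8 CPM (SD, n = 5) in ctrl, 0p5h and 24h. Thus Cxcl2 was narrowly spread in WT 0p5h, where its SD was the smallest of the 3 sets.

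In the Cacnb3-/- cultures, in the order p974s843, p974s851, p974s852, p974s853 and p974s865, Cxcl2 was at 34.1, 31.8, 9.92, 10.3 and 22.5 CPM in ctrl and at 115, 46.6, 23.7, 31.8 and 74.4 CPM in 0p5h. Each culture was higher in 0p5h, by 3.37, 1.46, 2.39, 3.08 and 3.30-fold, but the cultures started from different levels and the groups overlapped. In 24h they were at 52.1, 45.9, 18.9, 24.7 and 17.4 CPM. The means were 21.7 ± 11.4, 58.2 ± 37.0 and 31.8 ± 16.1 CPM (SD, n = 5). Within the WT cultures the ratios were 1.36, 2.46, 1.84, 2.74 and 2.01-fold, and the ratios of the genotypes overlapped.

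A gene was called changed at an adjusted p under 0.05 and at least 2-fold by the quasi-likelihood test of edgeR over all expressed genes. In WT 0p5h against ctrl, 1 of 6 members was called, beside 0.176% of all genes tested (23 of 13085, all higher). This was Cxcl2, with a log2 fold change of 1.005 (SE 0.14, 95% interval 0.70 to 1.31) and an adjusted p of 0.0173, and DESeq2 called it as well, beside 0.32% of all genes. The fold sits at the threshold of 2-fold. Leaving out 1 culture kept the call only without p974s846 (1.16, adjusted p = 0.0274), and without any of p974s850, p974s855, p974s856 or p974s864 the adjusted p was 0.064 to 0.2 with log2 fold changes of 0.88 to 1.03. All 6 members had a log2 fold change above 0, with a median of 0.61 against 0.008 over all genes, and 3 of 6 had an unadjusted p under 0.05, as did 4.54% of all genes.

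In Cacnb3-/- 0p5h against ctrl, 0 of 5 tested members were called by edgeR, beside 0.29% of all genes (37 of 12750), and DESeq2 called 0 as well, beside 0.403%. Cxcl9 did not pass the filter on low counts there. An unadjusted p under 0.05 was seen for 3 of 5 members, against 3.99% of all genes. Cxcl2 had a log2 fold change of 1.41 (SE 0.46, 95% interval 0.39 to 2.42) and an adjusted p of 0.71. With a replicate block for the culture number, which compares each culture with itself, the change was 1.38 (SE 0.17, interval 1.004 to 1.747) and it was called, with an adjusted p of 0.00195. The blocked fit called 0.643% of all genes, and Cxcl2 remained called in all 5 blocked fits with 1 culture left out (adjusted p from 2.62e-05 to 0.02). In WT the blocked fit, which called 0.581% of all genes, gave 1.02 (SE 0.11, adjusted p = 0.000405).

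The difference between the genotypes in this change was 0.41 (log2, Cacnb3-/- minus WT, SE 0.51, 95% interval -0.66 to 1.48), with an adjusted p of 1.0. This fit does not compare each culture with itself. Its interval includes no difference and differences of over 2-fold, so this fit does not set a close limit on it. With the replicate block, 0 of 6 members had an unadjusted p under 0.05 in this interaction, and the share of all genes there is not given here. In 24h against 0p5h, Cxcl2 was lower by 1.09 (log2, SE 0.34, adjusted p = 0.221) in WT and lower by 0.86 (SE 0.44, adjusted p = 0.317) in Cacnb3-/-, and neither passed. With the replicate block the WT fall was called (-1.25, SE 0.28, adjusted p = 0.0229), beside 1.78% of all genes. In Cacnb3-/- the blocked value was -0.78 with an adjusted p of 0.0347, which is under 2-fold and not called, while 2.88% of all genes were.

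**Figure D3:**
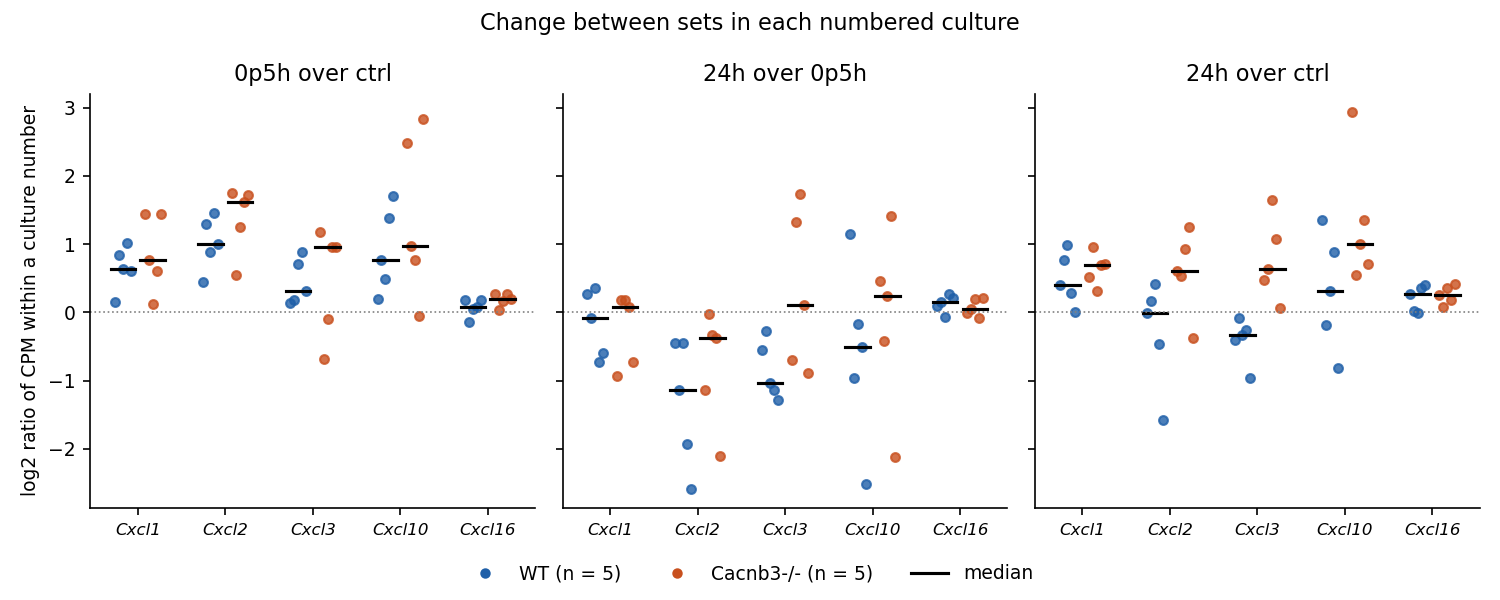
Log2 ratio of CPM between sets within each culture number for 5 CXC chemokines, with WT in blue and Cacnb3-/- in orange (n = 5 each) and the median as a black bar. For Cxcl2 all 10 ratios lie above 0 from ctrl to 0p5h and below 0 from 0p5h to 24h, and for Cxcl3 the ratios of 24h over ctrl lie below 0 in WT and above 0 in Cacnb3-/-.

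Cxcl1, a neighbour of Cxcl2 with the same receptor, was also higher in 0p5h than in ctrl in 10 of 10 cultures, by less. In WT it was at 9.49, 6.48, 12.4, 7.83 and 5.81 CPM in ctrl and at 10.5, 11.6, 19.3, 15.8 and 8.83 CPM in 0p5h, which is 1.11 to 2.02-fold within a culture. In Cacnb3-/- it was at 13.4, 6.12, 10.5, 10.2 and 5.50 CPM in ctrl and at 36.4, 10.5, 11.5, 15.6 and 15 CPM in 0p5h, or 1.09 to 2.72-fold. The groups overlapped in both genotypes. The log2 fold changes were 0.66 (SE 0.25, adjusted p = 0.82) in WT and 0.94 (SE 0.36, adjusted p = 0.939) in Cacnb3-/-. With the replicate block the adjusted p was 0.00435 in WT (0.66) and 0.0374 in Cacnb3-/- (0.90), both under 2-fold and so not called. No fall of Cxcl1 between 0p5h and 24h passed, with or without the block. It was at 12.6, 11, 24.6, 9.53 and 5.82 CPM in WT 24h and at 19.2, 11.9, 13, 16.5 and 9.03 CPM in Cacnb3-/- 24h. In 24h it was above ctrl in 5 of 5 WT cultures (1.0 to 1.98-fold) and in 5 of 5 Cacnb3-/- cultures (1.24 to 1.94-fold). The 24h mean was 12.7 ± 7.11 CPM in WT, beside 13.2 ± 4.27 in 0p5h and 8.41 ± 2.65 in ctrl. In Cacnb3-/- the means were 9.16 ± 3.31, 17.8 ± 10.6 and 13.9 ± 3.97 CPM in ctrl, 0p5h and 24h (SD, n = 5).

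Cxcl3, the closest relative of Cxcl2 in sequence, differed more between cultures than between sets. In WT it was at 22, 27.5, 51.7, 24.2 and 8.79 CPM in ctrl, at 24.3, 31.4, 84.5, 44.4 and 10.9 CPM in 0p5h and at 16.6, 26.1, 41.1, 20.2 and 4.51 CPM in 24h. Culture p974s855 was highest and p974s864 lowest in every set, with means over the 3 sets of 59.1 ± 22.7 and 8.07 ± 3.26 CPM. In Cacnb3-/- it was at 18.3, 33.6, 8.19, 7.31 and 17.8 CPM in ctrl, at 41.3, 20.9, 7.67, 14.3 and 34.8 CPM in 0p5h and at 25.4, 52.4, 25.6, 15.4 and 18.8 CPM in 24h. In 0p5h it was thus above ctrl in 5 of 5 WT cultures (1.10 to 1.84-fold) and in 3 of 5 Cacnb3-/- cultures (0.621 to 2.26-fold). The log2 fold changes were 0.56 (SE 0.53, adjusted p = 1.0) and 0.47 (SE 0.48), and neither was called. In the blocked fit they were 0.49 (SE 0.10, adjusted p = 0.0194, under 2-fold and so not called) and 0.48 (adjusted p = 0.413). Also under 2-fold were 24h against 0p5h in WT (-0.83, adjusted p = 0.00649) and 24h against ctrl in Cacnb3-/- (0.75, adjusted p = 0.0419) in that fit.

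Between ctrl and 24h, Cxcl3 differed in opposite directions by genotype: it was lower in 5 of 5 WT cultures (0.513 to 0.948 of ctrl, median 0.794) and higher in 5 of 5 Cacnb3-/- cultures (1.05 to 3.13-fold, median 1.56). The difference between the genotypes in this change was 0.996 (log2, SE 0.71, 95% interval -0.49 to 2.48), with an adjusted p of 0.753, so it did not pass. Of 6 members, edgeR called 0 in this interaction and 0 in each of those of 0p5h against ctrl and 24h against 0p5h, as it and DESeq2 called 0.0% of all genes. An unadjusted p under 0.05 was seen for 0 members, against 4.86%, 0.223% and 5.88% of all genes. With the replicate block it was 1.12 (SE 0.25, interval 0.59 to 1.65, adjusted p = 0.157) and still did not pass in edgeR, which called 0.118% of all genes in that fit. DESeq2 with the replicate block called it, at 1.15 and an adjusted p of 0.00489, beside 0.395% of genes. Without culture p974s865 the blocked edgeR fit called it too (1.30, adjusted p = 0.0297), and in the other 9 blocked fits that left out 1 culture it did not. The summed DC markers were 27300 to 42100 CPM in WT 24h and 17500 to 29700 CPM in Cacnb3-/- 24h. Over the 30 libraries they had a Pearson r of 0.467 with Cxcl3. Other lists had an r of larger size with Cxcl3, such as the CXC receptors (0.556) and the markers of B cells (-0.628). The part of the DC markers in the Cxcl3 values was not tested.

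Cxcl10 was low, from 25 to 428 reads per library. In WT it was at 7.65, 7.84, 5.22, 5.34 and 3.13 CPM in ctrl, at 8.81, 13.4, 7.31, 13.9 and 10.2 CPM in 0p5h and at 19.6, 6.90, 6.47, 9.84 and 1.78 CPM in 24h. It was higher in 0p5h than in ctrl in 5 of 5 WT cultures, by 1.15 to 3.26-fold, and the 24h libraries ran from below the lowest of ctrl to above the highest of 0p5h. In Cacnb3-/- it was at 1.75, 6.26, 1.97, 2.95 and 1.73 CPM in ctrl, at 9.70, 12.2, 3.35, 2.83 and 12.4 CPM in 0p5h and at 13.3, 9.17, 3.96, 7.56 and 2.85 CPM in 24h. Here 4 of 5 cultures were higher in 0p5h (0.960 to 7.13-fold) and 5 of 5 were higher in 24h than in ctrl (1.46 to 7.62-fold). The means of Cacnb3-/- were 2.93 ± 1.93, 8.10 ± 4.70 and 7.37 ± 4.2 CPM, and those of WT were 5.84 ± 1.95, 10.7 ± 2.87 and 8.92 ± 6.62 CPM (SD, n = 5).

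No change of Cxcl10 between sets was called without the block. The log2 fold change of 0p5h against ctrl was 0.88 (SE 0.26, adjusted p = 0.47) in WT and 1.47 (SE 0.49, adjusted p = 0.736) in Cacnb3-/-. In the blocked fit the adjusted p was 0.014 in WT, at under 2-fold, and 0.0777 in Cacnb3-/-. For 24h against ctrl it was 1.33 (SE 0.47, adjusted p = 0.444) in Cacnb3-/- and 0.61 (adjusted p = 0.747) in WT. The blocked fit called the Cacnb3-/- difference (1.29, SE 0.32, adjusted p = 0.0347), beside 1.11% of all genes. That call did not remain in any of the 5 blocked fits with 1 culture left out, where the adjusted p was 0.00808 to 0.13. The lowest of these, without p974s843, came with a change of 0.87 (SE 0.19), under 2-fold. That culture had the largest ratio, from 1.75 to 13.3 CPM, and it is also the 1 culture whose ctrl and 24h libraries did not deviate together from their group means. Among type I interferon genes, of which Cxcl10 is a classical companion, 9 of 10 had an unadjusted p under 0.05 in the same comparison. This was so for 10.8% of all genes. Of the 10, 0 were called by edgeR, as were 0.0% of all genes, and the median log2 fold change was 1.84 against -0.01 over all genes. With the replicate block 7 of these 10 were called, beside 1.11% of all genes.

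Cxcl9 had 0 to 34 reads per library. The WT counts were 8, 25, 19, 14 and 4 in ctrl, 12, 15, 34, 11 and 4 in 0p5h and 12, 10, 18, 1 and 5 in 24h. The Cacnb3-/- counts were 0, 22, 3, 3 and 4 in ctrl, 4, 9, 1, 3 and 9 in 0p5h and 5, 4, 1, 6 and 15 in 24h. No order of sets was visible in either genotype, and the level never exceeded 1.58 CPM. Ifng, which encodes the main inducer of Cxcl9, had 0 to 2 reads in any library, and Ifnb1 had 0 to 11. At this depth a change of Cxcl9 was not detectable.

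Cxcl16 was the opposite case, with 9301 to 56008 reads per library and little change. In WT it was at 1530, 1640, 1750, 1500 and 995 CPM in ctrl, at 1720, 1480, 1830, 1600 and 1140 CPM in 0p5h and at 1840, 1650, 1750, 1930 and 1310 CPM in 24h. In Cacnb3-/- it was at 1040, 1400, 1150, 1340 and 995 CPM in ctrl, at 1240, 1430, 1290, 1610 and 1150 CPM in 0p5h and at 1240, 1480, 1480, 1520 and 1340 CPM in 24h. Every group overlapped every other, and culture p974s864 was the lowest WT culture in all 3 sets. The largest change between sets without the block was 0.25 on the log2 scale, in Cacnb3-/- 24h against ctrl, and it did not pass. Within cultures, 24h was above ctrl in 5 of 5 Cacnb3-/- cultures (1.06 to 1.34-fold) and in 4 of 5 WT cultures (0.999 to 1.32-fold). With the replicate block, Cxcl16 had an unadjusted p under 0.05 in Cacnb3-/- 24h against ctrl. Cxcl16 was under 2-fold there and not called. Of its proteases, Adam10 was at 55.6 to 160 CPM and Adam17 at 61.4 to 226 CPM over all libraries. Neither was called in any comparison by edgeR, and with the replicate block 1 of the 2 had an adjusted p under 0.05 in each of the 4 comparisons with 24h, at under 2-fold: Adam10 in Cacnb3-/- (0.53 against ctrl, adjusted p = 0.0374) and Adam17 in WT (-0.47 against ctrl, adjusted p = 0.0463).

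Over all members, WT 24h against ctrl called 0 of 6 by edgeR, beside 0.0152% of all genes, with 0 of 6 at an unadjusted p under 0.05 (8.39% of all genes) and a median log2 fold change of 0.06. WT 24h against 0p5h called 0 of 6, beside 0.639% of all genes, with 1 of 6 (Cxcl2) at an unadjusted p under 0.05 (11.2% of all genes) and 5 of 6 below 0. Cacnb3-/- 24h against ctrl called 0 of 5, as it did 0.0% of all genes (0 of 12452), with 1 of 5 (Cxcl10) at an unadjusted p under 0.05 against 10.8% of all genes, and all 5 lay above 0. Cacnb3-/- 24h against 0p5h called 0 of 5, beside 0.66% of all genes, with 0 at an unadjusted p under 0.05 (17.5% of all genes). DESeq2 without the block also called 0 members in each of these 4 comparisons, beside 0.198%, 0.994%, 0.333% and 1.45% of all genes. With the replicate block, 5 of 5 members had an unadjusted p under 0.05 in Cacnb3-/- 24h against ctrl. Of these, 3 had an adjusted p under 0.05 and 1 (Cxcl10) was called, beside 1.11% of all genes. Their median was 0.63 against -0.01 over all genes. In WT the blocked counts at that unadjusted p were 2 of 6 for 24h against ctrl and 2 of 6 for 24h against 0p5h. In Cacnb3-/- 24h against 0p5h the count was 1 of 5. The share of all genes at that unadjusted p in the blocked fits is not given here, so these blocked counts cannot be set against it. The set comparisons of 1 genotype share libraries, so their values are not independent of each other.

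**Figure D4:**
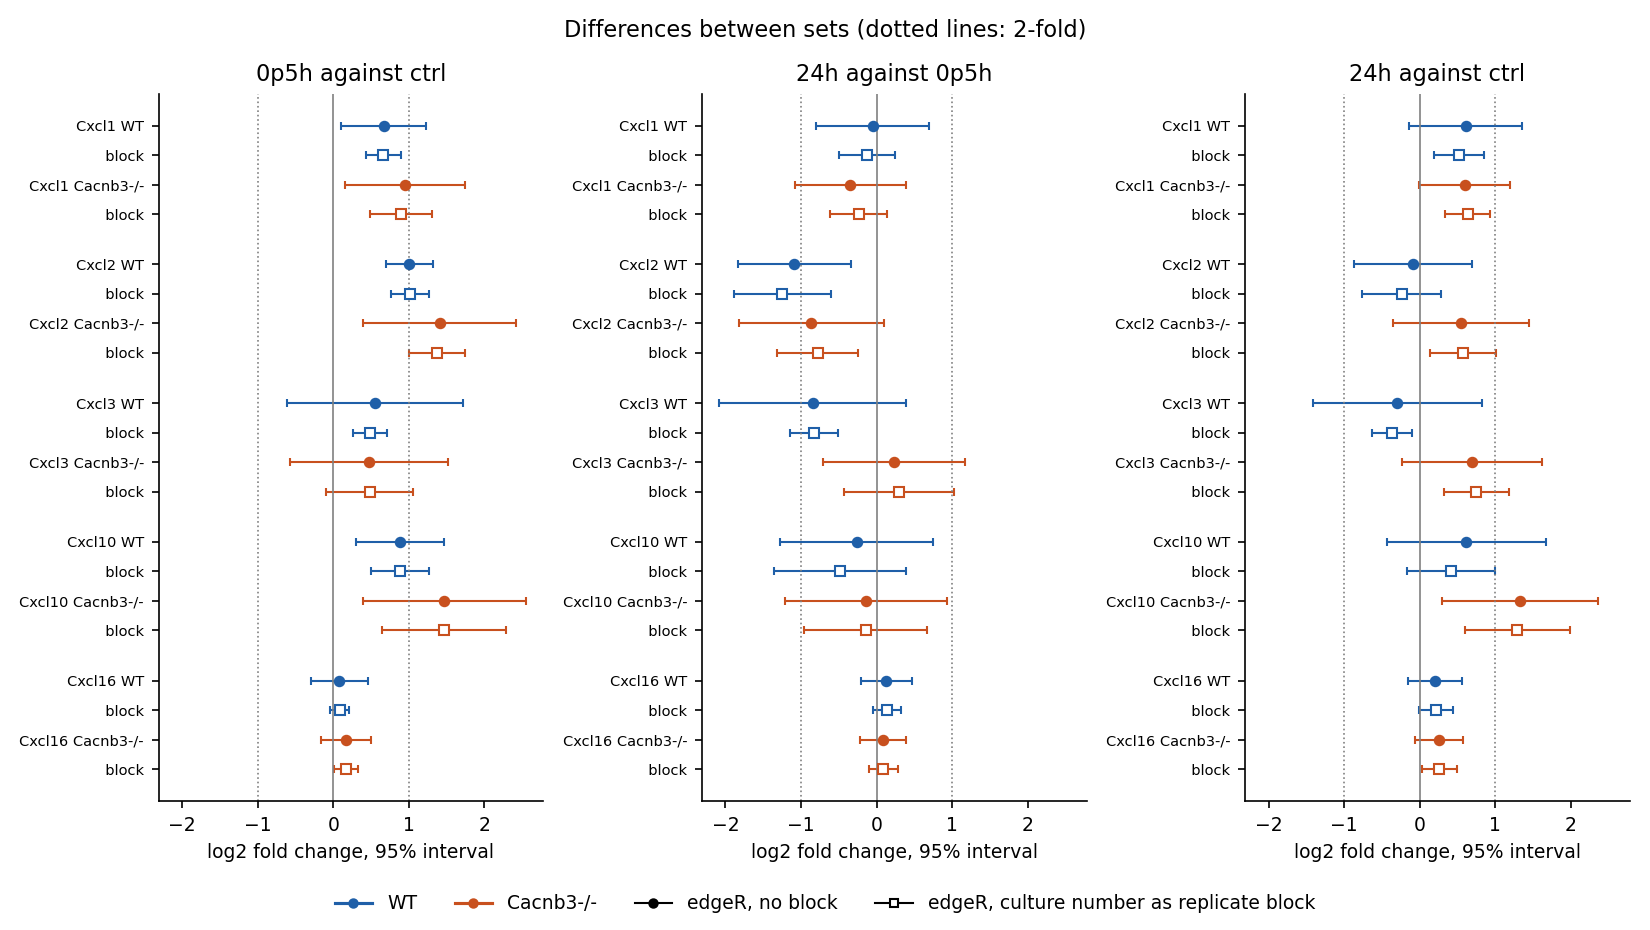
Log2 fold changes between sets with 95% intervals for 5 CXC chemokines, from edgeR without a block (filled circles) and with the culture number as replicate block (open squares), WT in blue and Cacnb3-/- in orange, with dotted lines at 2-fold. The blocked intervals are narrower for most members, most of all for Cxcl3, and Cxcl2 in 0p5h against ctrl lies near or above 2-fold in both genotypes.

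Between the genotypes, no CXC chemokine differed by a change that passed in any set. edgeR called 0 of 5 tested members in ctrl, 0 of 5 in 0p5h, 0 of 6 in 24h and 0 of 6 in the sums of the 3 libraries of each culture, as it called 0.0% of all genes in each. DESeq2 called 0 members there, beside 1.02%, 0.588%, 4.74% and 1.74% of all genes. An unadjusted p under 0.05 was seen for 1 member in ctrl (Cxcl10) and for 0 in the others, against 16.6%, 16.4%, 38.4% and 23.3% of all genes.

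The Cxcl10 difference in ctrl, libraries labelled Cacnb3-/- minus those labelled WT, was -0.99 on the log2 scale (SE 0.39, 95% interval -1.83 to -0.15), with an adjusted p of 0.263, and so did not pass. Of the 5 Cacnb3-/- libraries, 4 were below all WT libraries and p974s851, at 6.26 CPM, was not. Without that culture the difference was -1.47 (SE 0.31, adjusted p = 0.298). In 0p5h and 24h the difference was smaller (-0.38 and -0.28). The summed level of the type I interferon genes was 522 to 736 CPM in Cacnb3-/- ctrl and 740 to 1220 CPM in WT ctrl. Of these genes, 9 of 10 had an unadjusted p under 0.05 with 0 called by edgeR, against 16.6% and 0.0% of all genes. Their part in the Cxcl10 difference was not tested.

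The Cxcl16 difference, on the same scale, was -0.30, -0.19 and -0.25 in ctrl, 0p5h and 24h and -0.25 in the sums (95% interval -0.58 to 0.07, adjusted p = 0.308), and none passed. The interval leaves out a difference of 2-fold for this gene. The summed DC markers beside it were at 17500 to 34100 CPM in the libraries labelled Cacnb3-/- and 27300 to 42500 CPM in those labelled WT. The markers did not differ alike. In the sums per culture, Ccl22 was at -0.764, Ccr7 at -0.582, Fscn1 at -0.477, Cd74 at -0.379 and H2-Ab1 at -0.33. Itgax was at -0.095, Flt3 at -0.055 and Zbtb46 at 0.174, and none of these markers was called. The part of the DC markers in the Cxcl16 level was not tested. For the Cxcr2 ligands the differences in the sums were 0.25 for Cxcl1, 0.13 for Cxcl2 and -0.41 for Cxcl3, each with an interval that included 0.

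**Figure D5:**
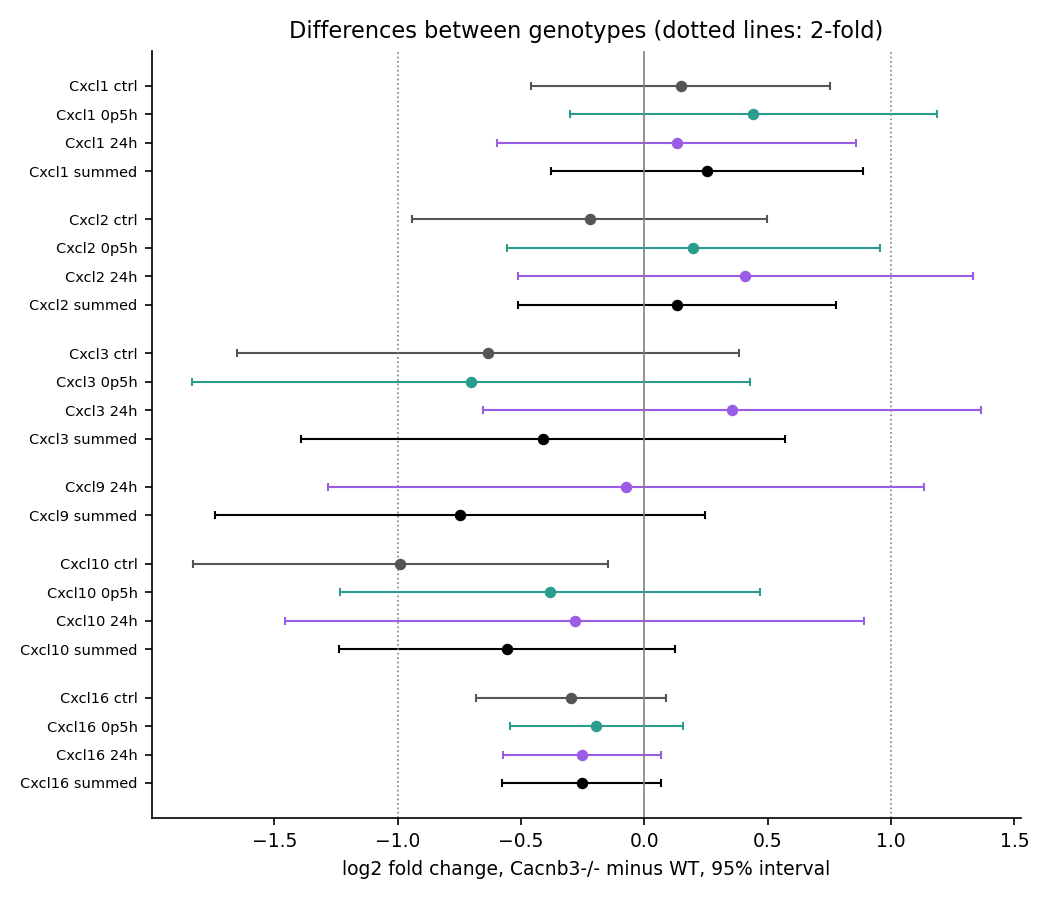
Log2 differences between genotypes (Cacnb3-/- minus WT) with 95% intervals for the CXC chemokines in ctrl, 0p5h, 24h and the sums per culture, with dotted lines at 2-fold and Cxcl9 shown where it passed the filter. Every interval includes 0 except that of Cxcl10 in ctrl, and the intervals of Cxcl16 are the narrowest.

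Of the other 9 CXC chemokine genes, Pf4 and Ppbp, which platelets and their precursors express, were the only ones over 20 CPM in any library, at 22.6 to 224 CPM and 4.42 to 25.5 CPM. The Pf4 difference (Cacnb3-/- minus WT, log2) was 1.51, 1.46 and 1.20 in ctrl, 0p5h and 24h (adjusted p = 0.243, 0.251 and 0.0515), and no CXC chemokine outside the 6 was called in any comparison by edgeR. Cxcl14 reached 10.6 CPM and Cxcl12 2.04 CPM, while Cxcl5, Cxcl13, Cxcl15 and Cxcl17 stayed under 1 CPM in all libraries. Among the receptors, Cxcr4, the receptor of Cxcl12, was the highest at 241 to 557 CPM. Cxcr2, the receptor of Cxcl1 to Cxcl3, was at 1.28 to 8.42 CPM, and Cxcr3 and Cxcr6, the receptors of Cxcl9, Cxcl10 and Cxcl16, were under 1 CPM in all libraries. Of the 8 receptors listed, the scavenging receptor Ackr3 was the only 1 called without the block. In Cacnb3-/-, where 4 of the 8 were tested, it rose by 1.81 (log2, SE 0.31, adjusted p = 0.0303) in 0p5h against ctrl, beside 0.29% of all genes called. It fell by 2.25 (adjusted p = 0.00454) in 24h against 0p5h, beside 0.66% of all genes called. In WT its change in 0p5h against ctrl was 1.34 with an adjusted p of 1.0. In the blocked fit Ackr3 was called in WT too, higher in 0p5h than in ctrl (1.32, adjusted p = 0.000282) and lower in 24h than in 0p5h (-1.97, adjusted p = 0.00176). The same fit also called Cxcr5, the receptor of Cxcl13, higher in Cacnb3-/- 24h against ctrl (1.07, adjusted p = 0.0137) and in the interaction of that comparison (1.64, adjusted p = 0.0125).

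A list of 12 early NF-kB targets was read beside the Cxcr2 ligands. In WT 0p5h against ctrl, 0 of 12 were called by edgeR, beside 0.176% of all genes. An unadjusted p under 0.05 was seen for 6, against 4.54% of all genes, and 11 lay above 0, with a median of 0.18. In Cacnb3-/-, 3 of 12 rose, beside 0.29% of all genes: Ccl4, a chemokine for T cells and monocytes (2.18, adjusted p = 0.0311), Il1b, which encodes the cytokine IL-1β (2.17, adjusted p = 0.0176), and Nfkbiz, an inducible regulator of NF-kB (1.41, adjusted p = 0.0044). Tnf went against the list, at -1.71 in WT (adjusted p = 0.0571) and -1.60 in Cacnb3-/- (adjusted p = 0.457). In 24h against 0p5h, Nfkbiz fell in WT (-1.39, adjusted p = 0.0125), beside 0.639% of all genes called. In Cacnb3-/-, Nfkbiz and Il1b fell and Tnf rose (1.92, adjusted p = 0.0296), beside 0.66% of all genes called. The blocked fit of WT 0p5h against ctrl called Il1b (1.46, adjusted p = 1.77e-05) and Nfkbiz (1.14, adjusted p = 3.96e-05) higher and Tnf lower (-1.74, adjusted p = 0.000131), beside 0.581% of all genes. In Cacnb3-/- it called Ccl4, Il1b and Nfkbiz higher and Tnf lower (-1.54, adjusted p = 0.00387), beside 0.643% of all genes. In the interaction of 0p5h against ctrl 0 of 12 were called without the block, as were 0.0% of all genes, and 0 of 12 with it. In the blocked fit 3 of 12 had an unadjusted p under 0.05. The shares of all genes in that blocked fit are not given here, so this count cannot be set against them.

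A list of type I interferon targets was read beside Cxcl10. Of 10 type I interferon targets, 1 rose without the block in Cacnb3-/- 24h against 0p5h, beside 0.66% of all genes called. This was Ifit1, an antiviral RNA-binding protein gene (2.81, adjusted p = 0.0469). All 10 targets had an unadjusted p under 0.05 in that comparison, against 17.5% of all genes. Their median was 1.43, while Cxcl10 itself was at -0.15 (log2). In WT the same list had a median of 0.39 and 0 called, beside 0.639% of all genes. There 1 of 10 had an unadjusted p under 0.05, against 11.2% of all genes. With the replicate block 7 of 10 were called higher in Cacnb3-/- 24h against 0p5h, beside 2.88% of all genes, and 1 of 10, Ifit3, in WT (1.13, adjusted p = 0.00891), beside 1.78% of all genes.

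Over the 30 libraries, the genes whose log2 CPM was most like that of Cxcl2 were the chemokines Ccl4 (Pearson r = 0.807) and Ccl3 (0.803), Ptgs2 (0.785), Cd14 (0.77) and Phlda1 (0.758), out of 13755 genes. When the 6 group means were taken out, Ccl3 (0.89) and Tnf (0.827) were among the 5 most like it. Ccl4 was also most like Cxcl1 (0.74) and Cxcl10 (0.794), and Cxcl2 was the gene ranked 4 for Cxcl10 (0.677). Cxcl3 was most like AA467197 (0.819) and Cst7 (0.806), and its r with Cxcl2 was 0.678. Cxcl16 kept apart from Cxcl2 (0.061) and was most like Stat3 (0.915), Syngr2 (0.914) and the costimulatory receptor gene Cd40 (0.912). Libraries of 1 culture share their cells, so these are descriptions over 30 points that are not independent.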

How the data were processed

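Per the file headers, the authors counted reads per gene with featureCounts 1.5.1 on exons of Ensembl 79 (GRCm38) with no strand option, and the deposited values are raw counts. The labels name poly A RNA, STAR 2.4, DESeq2 and mm10, whereas the study's methods name GRCm39. Symbols came from GENCODE M39 (38984 of 43629 identifiers, 89.4%) and upstream bases from RefSeq (GRCm38.p6). Levels are counts per 1000000 reads (CPM) after TMM scaling, and RPKM is CPM per kilobase of exon.

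Sets were compared within each genotype, genotypes within each set and over summed counts, and the difference between genotypes in a set change as an interaction, with R 4.3.3 and edgeR 4.0.16 (filterByExpr, quasi-likelihood test, Benjamini-Hochberg adjustment over all genes tested, called at an adjusted p under 0.05 and at least 2-fold). The scripts were tested on simulated data. Alternatives were DESeq2 1.42.0, its size factors, no filter, no fold minimum, all 30 libraries, sequencing lane, removal of the GC trend, a replicate block for the culture number, and fits that left out 1 culture each. DESeq2 with the block and the block with a culture left out were added after seeing the data. One list of response genes and one motif are not reported here. The members and lists, and the genes most like each member, were chosen with earlier results of these data known.

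The labels do not say that a number marks 1 animal. In 29 of 30 pairs of libraries that share a number, the departures from the group mean were correlated (r over 0.1, 13755 genes), with a median r of 0.609 where pairs of unlike number had -0.219, and the numbers were taken to pair the samples. The exception was Cacnb3-/- p974s843 between ctrl and 24h (0.0746), so for Cacnb3-/- 24h against ctrl, and for the interaction that uses it, the pairing holds in 4 of 5 pairs. No libraries were duplicates. Replicates are cultures, and whether they came from separate animals is not stated, so p-values measure the spread between cultures.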

Additional observations from a re-analysis of the deposited data

Results flagged for a closer look

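In groups of 5 libraries, the highest and lowest library of each group was compared with its neighbour over the range of the group, and 4 of 36 groups had a library that stood apart. The cutoff is meant to flag about 1 in 20 groups of independent, normally spread values. These groups share cultures and the CPM were not transformed, so the 4 cannot be set against that rate. Cxcl1 in Cacnb3-/- 0p5h was at 36.4 CPM in p974s843, beside 15.6 CPM in the next library. Cxcl3 in Cacnb3-/- 24h was at 52.4 CPM in p974s851, beside 25.6 CPM in the next. In Cacnb3-/- ctrl, p974s851 was the highest for Cxcl9 (1.58 CPM, next 0.236) and for Cxcl10 (6.26 CPM, next 2.95).

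Cxcl3 in 24h over ctrl went opposite ways in the genotypes: all 5 WT cultures were lower (median 0.794 of ctrl) and all 5 Cacnb3-/- cultures were higher (median 1.56-fold). The interaction did not pass in edgeR (adjusted p = 0.753, or 0.157 with the replicate block), whereas DESeq2 with the block called it (adjusted p = 0.00489).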

How the results depend on the processing

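Of 1211 log2 fold changes of members recomputed under an alternative, 1150 kept their direction and their side of the threshold, 46 turned direction, 9 gained a call and 6 lost it. None that turned had an adjusted p under 0.709. The number of members called stayed the same in 201 of 216 cases. In WT 0p5h against ctrl the call of Cxcl2 was lost, leaving 0 members, with no filter on low counts (0.99) and with all 30 libraries in 1 fit (adjusted p = 1.0), and the number was 0 to 1 with a culture left out. It rose to 1 with the replicate block, alone or with the GC correction, and in DESeq2 with the block, in WT 24h against 0p5h and in Cacnb3-/- 0p5h against ctrl (Cxcl2 in each). In Cacnb3-/- 24h against ctrl it rose to 1 (Cxcl10) with the replicate block and in DESeq2 with it, but not with the block and the GC correction (adjusted p = 0.0517). In the interaction of 24h against ctrl it rose to 1 (Cxcl3) in DESeq2 with the block. The replicate block changed no other call. The cause of these changes was not tested.

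Values that turned direction were small. Without the GC trend, Cxcl3 was at -0.038 in Cacnb3-/- 24h against 0p5h and at -0.021 between genotypes in 24h, Cxcl1 at -0.146 between genotypes in 24h, and Cxcl16 at 0.063 in the interaction of 24h against 0p5h (0.056 with the block). With lane as a covariate, Cxcl1 was at -0.077 (ctrl) and -0.147 (24h) between genotypes. In the interaction of 0p5h against ctrl, Cxcl3 was at 0.021 with the replicate block, 0.026 with the GC correction too and 0.021 in DESeq2 with the block. In that of 24h against ctrl, Cxcl1 was at 0.002 in DESeq2, 0.121 with the block and 0.126 in DESeq2 with the block.

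With a culture left out, the ranges that crossed 0 were -0.282 to 0.1 for Cxcl2 in WT 24h against ctrl, -0.258 to 0.103 for Cxcl1 in WT 24h against 0p5h, and, in Cacnb3-/- 24h against 0p5h, -0.2 to 0.541 for Cxcl3 and -0.388 to 0.258 for Cxcl10. Between genotypes they were -0.034 to 0.325 for Cxcl1 in ctrl and -0.206 to 0.391 for Cxcl2 in 0p5h, and in 24h -0.05 to 0.52 for Cxcl1, -0.013 to 0.729 for Cxcl3, -0.288 to 0.165 for Cxcl9 and -0.593 to 0.24 for Cxcl10. In the sums they were -0.002 to 0.513 for Cxcl1, -0.171 to 0.308 for Cxcl2 and -0.651 to 0.031 for Cxcl3. In the interactions they were -0.346 to 0.357 for Cxcl3 and -1.35 to 0.48 for Cxcl9 (0p5h against ctrl), -0.091 to 0.197 for Cxcl1, -0.152 to 2.065 for Cxcl9 and -0.0 to 0.101 for Cxcl16 (24h against ctrl), and -0.027 to 0.494 for Cxcl2 and -0.138 to 0.692 for Cxcl10 (24h against 0p5h). Depth limits Cxcl9, with at most 34 reads per library.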
